A study of Bos taurus with 6 samples.

Results

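BCL6, MXI1, HBP1 and KLHL24 are 4 genes that have been reported, mainly in human and mouse cells, to be switched on by FOXO transcription factors when insulin signalling is low. They were followed in pieces of the cortex of fetal ovaries of cattle, obtained from a slaughterhouse and cultured for 2 days. Control pieces were in TS+ medium, with transferrin, selenous acid, BSA and linoleic acid but no added insulin. Treated pieces were in ITS+ medium, in which insulin was added to stimulate the activation of follicles. The series description says that primordial (resting) follicles were enriched in the control pieces and primary (early growing) follicles in those with insulin. There were 3 Affymetrix bovine arrays in each group. The labels give no strain or fetal age, nor whether a replicate was its own fetus, so the spread between replicates may be technical. Whole pieces were measured, so a lower signal in each cell and fewer cells that carry the transcript cannot be told apart.

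Members were the rows of the authors' deposited table that name 1 of the 4 genes. This table lists 158 of the 24128 probe sets on the array, all with an authors' p-value below 0.001 for insulin against control, and 4 of its rows were members. BCL6 is written there as LOC539020, MXI1 as LOC614509 and KLHL24 as LOC533510, and these gene numbers belong to the named genes in RefSeq. HBP1 was read from the title of the row with the symbol MGC128984, which names a high mobility group box transcription factor. A further 2 probe sets carry the same Bt number as the MXI1 row, taken here as the number of 1 cluster of bovine transcripts, and they are not in the authors' table. The other 3 genes had no further probe set of their number, so 6 probe sets are described. Because the authors' comparison of insulin with control chose the members, their differences between the 2 media are given as a description, and the count of members past a threshold, given further on, supports nothing.

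Insulin acts through PI3K and AKT, and AKT phosphorylates FOXO proteins, which then leave the nucleus, so that genes they switch on fall. In the mouse ovary, FOXO3 in the oocyte holds primordial follicles at rest, and its loss leads to their activation. BCL6, MXI1 and HBP1 are transcriptional repressors that can restrain entry into the cell cycle or the action of MYC, while KLHL24 is an adaptor of a ubiquitin ligase.

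Signals of all 4 genes were lower with insulin, at 48.6% to 54.7% of the control mean. Array medians lay between 195.5 and 211.9 on the linear intensity scale of the authors, and upper quartiles between 620.5 and 633.4. Over the 14410 probe sets that were tested, the median log2 difference between insulin and control was -0.0011. Of the 43 marker genes listed for 8 cell types, among them oocyte, follicle cells, stroma and leukocytes, 0 had a named probe set, so neither the labelled tissue nor the part of cell mixture in these results was tested.

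BCL6 encodes a zinc finger repressor best known from germinal centre B cells, and in cultured blood cells FOXO3 has been reported to act through it on cyclin D2. Its probe set, Bt.7670.1.A1_at, had signals of 2654, 2166 and 2582 on control arrays 1, 2 and 3. On insulin arrays 1, 2 and 3 the signals were 1203, 1116 and 1280. The highest insulin array was at 59.1% of the lowest control array, so the groups did not overlap, and replicate 2 was the lowest array of both groups. The mean went from 2468 ± 263 to 1200 ± 81.7 (SD, n = 3 each), and the log2 difference of insulin minus control, computed on log2(signal + 16), was -1.03 with a limma SE of 0.13. This was the 10th largest fall among the 68 lower rows of the authors' deposited table and the 5th among its 37 lower rows with a gene name.

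MXI1 encodes a partner of MAX that occupies the same E-box sites as MYC and opposes it. The member row, Bt.20431.2.S1_at, had signals of 999, 994 and 925 on control arrays 1, 2 and 3. The insulin arrays read 466, 584 and 491. Control arrays lay close together, with a coefficient of variation (SD over mean) of 4.28%, whereas that of the insulin arrays was 12.2% and insulin replicate 2 stood above the other two. The mean went from 973 ± 41.6 to 514 ± 62.5 (SD, n = 3 each), which on the log2 scale was a difference of -0.91 (SE 0.13).

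Both other MXI1 probe sets, which the authors' table does not list, were lower with insulin by a similar amount. Bt.20431.1.A1_at had control signals of 2330, 1943 and 1958 and insulin signals of 1119, 1211 and 1020. Its log2 difference was -0.88 with an SE of 0.13. Bt.20431.3.S1_at, the dimmest of the 3, had control signals of 497, 649 and 560 and insulin signals of 239, 341 and 272. Its log2 difference was -0.97 with an SE of 0.17. In each of the 3 probe sets the media did not overlap, and insulin replicate 2 was the highest insulin array. The control arrays had no such common order, since control replicate 1 was the highest for Bt.20431.1.A1_at and the lowest for Bt.20431.3.S1_at. The probe sets were hybridised with the same RNA, so they repeat the measurement of 1 gene and add no biological replicate.

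The MXI1 probe sets also show where the authors' selection fell. Their deposited p-values follow from their t values at 4 degrees of freedom to within 0.412%, and a p of 0.001 then corresponds to a t of 8.61 in size. In the authors' deposited table the MXI1 row had a t of -8.90 and a p of 0.000882, the highest p of the 4 members. The same statistic computed here was -8.85 for that row, -8.00 for Bt.20431.1.A1_at and -5.40 for Bt.20431.3.S1_at. Similar log2 differences thus lay inside and outside that table, and Bt.20431.3.S1_at had the largest coefficients of variation of the 6 probe sets, at 13.4% in control and 18.5% in insulin.

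HBP1 encodes a repressor with an HMG box that restrains WNT target genes and entry into the cell cycle. Its probe set, Bt.12412.1.S1_at, had signals of 3155, 3183 and 3048 on control arrays 1, 2 and 3. With insulin they were 1814, 1694 and 1577. Its control arrays differed least of all the probe sets described, with a coefficient of variation of 2.27%, and the highest insulin array reached 59.5% of the lowest control array. The mean went from 3129 ± 70.9 to 1695 ± 118 (SD, n = 3 each), which on the log2 scale was a difference of -0.88 (SE 0.11). In the authors' deposited table it had the lowest p of the 4 members, 0.000131, with a t of -14.5, although its log2 ratio there, -0.87, was smaller in size than those of BCL6 (-1.02) and MXI1 (-0.89).

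KLHL24 encodes a kelch-like adaptor of the cullin 3 ubiquitin ligase, and mutations of it in humans cause a skin blistering disease. Its probe set, Bt.3191.1.A1_at, is titled in the authors' table as similar to DRE1 protein. Control arrays 1, 2 and 3 had signals of 3146, 3470 and 2813. Insulin arrays had signals of 1638, 1760 and 1761, so that here the control arrays were the more variable, with a coefficient of variation of 10.4% against 4.11%. The mean went from 3143 ± 328 to 1719 ± 70.6 (SD, n = 3 each), which on the log2 scale was a difference of -0.86 (SE 0.13). The highest insulin array was at 62.6% of the lowest control array.

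**Figure D1:**
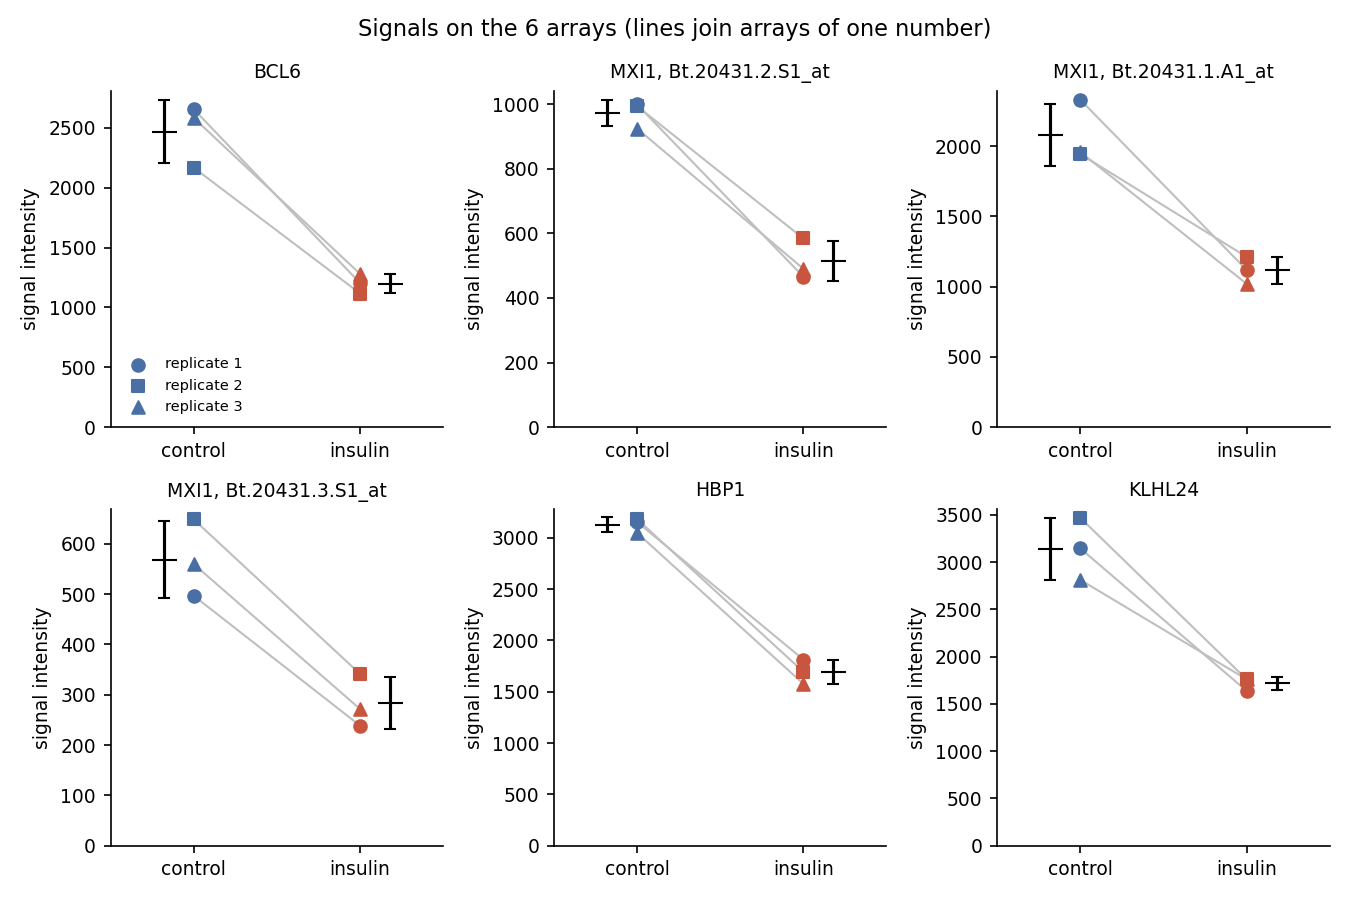
Signal intensity (linear, from 0) of the 6 probe sets on each array, with grey lines joining control and insulin arrays of the same replicate number and black bars giving the mean ± SD of 3 arrays. In all panels the 3 insulin arrays lie below the 3 control arrays.

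The media were then compared within each pair of same-numbered arrays, since the titles number both groups from 1 to 3. The insulin array was lower in 12 of 12 such pairs over the member rows, with log2 differences from -1.13 to -0.67. As the groups did not overlap, any pairing of the arrays gives this count, so nothing is read from it. Of all tested probe sets, 24.4% were lower with insulin in all 3 pairs. Which pair differed least was not the same from gene to gene. It was replicate 2 for BCL6 (-0.95) and for MXI1 (-0.75), replicate 1 for HBP1 (-0.79) and replicate 3 for KLHL24 (-0.67). For all 3 MXI1 probe sets it was replicate 2, at -0.75, -0.67 and -0.90. The median over the 4 member rows was -1.01 in pair 1, -0.93 in pair 2 and -0.92 in pair 3. The 4 log2 differences, with a median of -0.89, spanned 0.17 between BCL6 and KLHL24, little more than 1 SE of either.

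**Figure D2:**
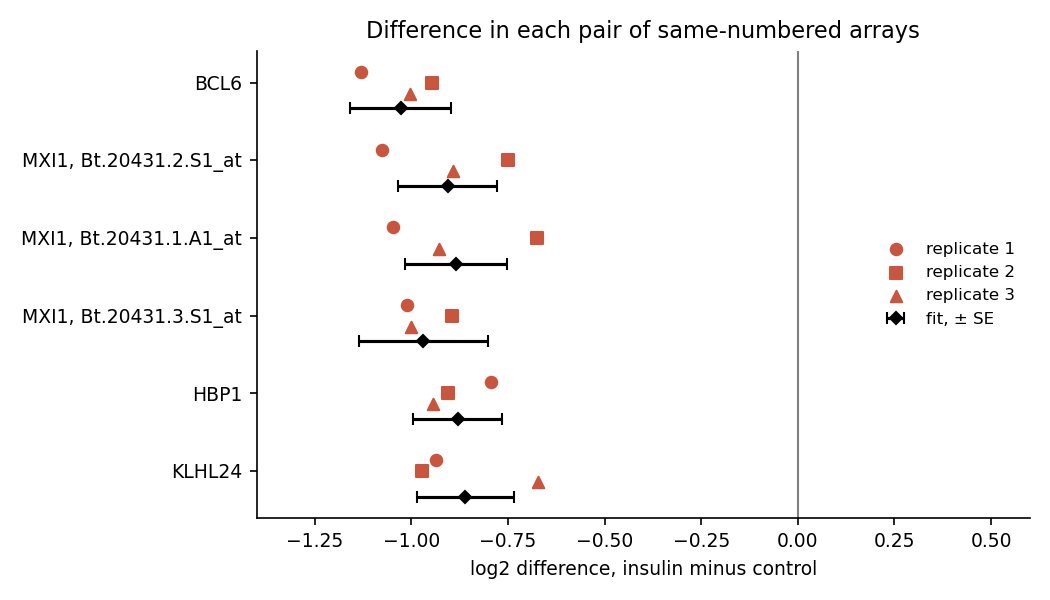
Log2 difference of insulin minus control for each pair of same-numbered arrays (coloured symbols) and from the limma fit (black diamonds ± SE) for the 6 probe sets, with the line at 0 marking no difference. All symbols lie left of 0, between -1.13 and -0.67.

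These values can be read against the whole array. At a limma p of 0.05 after Benjamini-Hochberg adjustment, 4 of 4 member rows and both other MXI1 probe sets were past the threshold, in a comparison in which 1.08% of the tested probe sets were called lower (2.26% in either direction). With the replicate number as a block 3.25% were called lower, and 4 of 4 member rows were past the threshold. Nothing is read from these counts, because the members were chosen on the same contrast. In 11.9% of the tested probe sets all insulin arrays were below all control arrays, so the lack of overlap seen for the members was common on this array, and the insulin array was below its same-numbered control in all 3 pairs in 24.4%. A difference at least as low as that of KLHL24 was found in 1.44% of the tested probe sets. Because the members were chosen on this contrast, nothing is read from that share or from their places by size. By size of fall among all tested probe sets BCL6 stood at place 123, MXI1 at 180, HBP1 at 197 and KLHL24 at 208. The number of member rows past the threshold depended on single arrays. It was 4 without control replicate 1, 1 without control replicate 2, which was BCL6, and 0 when control replicate 3 or any 1 insulin array was left out. Calls over all tested probe sets, 326 in the main fit, fell likewise, so the loss was not particular to the members. They were 242, 49 and 3 without control replicate 1, 2 and 3. Without insulin replicate 1, 2 and 3 they were 30, 40 and 59. As the groups did not overlap, no array left out could turn the sign of a difference.

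**Figure D3:**
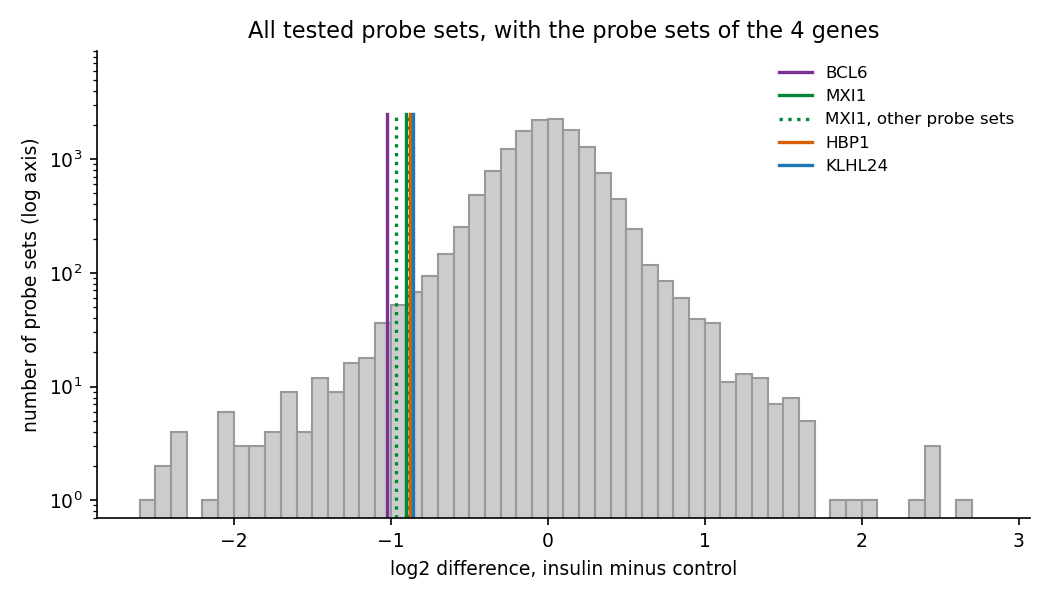
Number of tested probe sets (log axis) by log2 difference of insulin minus control in steps of 0.1, with lines for the 4 member rows and dotted lines for both other MXI1 probe sets. The 6 lines stand together on the lower side, between -1.03 and -0.86, while the median of all probe sets is -0.0011.

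The shape of the members' signals over the arrays was compared next. Each probe set was centred on its own mean of log2(signal + 16), and likeness was taken as the root mean square distance between 2 centred profiles over the 6 arrays, a smaller value meaning a closer likeness. The arrays and their scaling are common to all profiles, and the difference between the media, on which the rows were chosen, makes up most of each profile. Among the 4 member rows the distances ran from 0.100 to 0.199 in 6 pairs, while the median distance from a member to all tested probe sets was 0.480 to 0.560. BCL6 stood farthest, at 0.160 to 0.199 from the others, which lay within 0.100 to 0.124 of each other. Probe sets of the same gene could lie as far apart. Bt.20431.1.A1_at and Bt.20431.3.S1_at of MXI1 were at 0.223, and the MXI1 member row lay at 0.100 and 0.128 from them. The place of BCL6 is thus within the spread between probe sets of a single gene. Counted over all tested probe sets, BCL6 was only the 102nd closest to MXI1, the 66th to HBP1 and the 132nd to KLHL24. KLHL24 was the 9th closest to MXI1 and the 16th to HBP1, and MXI1 the 23rd to HBP1. Probe sets of other genes thus lay nearer, and the likeness was not particular to the members. The centred values of BCL6 lay outside the range of the other member rows on arrays of both media, which was not tested. Its centred value on control replicate 2 was 0.333, against 0.465 to 0.577 for the others. On control replicate 3 it was 0.584, against 0.276 to 0.403. On insulin replicate 2 it was -0.614, against -0.439 to -0.266.

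Each member was set against the 102 tested rows of the authors' table that name another gene, and the 3 closest were taken. F11R, a junctional adhesion molecule of epithelia and endothelia, was among the 3 closest for MXI1 (0.0763), HBP1 (0.0811) and KLHL24 (0.0721), and its own log2 difference was -0.91 with an SE of 0.12. For KLHL24 the closest was MTURN, known from frogs as a regulator of neural differentiation, at 0.0574, and MTURN was also among the 3 closest to HBP1, at 0.0965. MTURN was dim, with a mean of 215 ± 23.8 in control and 102.9 ± 0.094 with insulin (SD, n = 3 each), and the latter lies under the signal of 122 at which the filter on dim probe sets, applied to the mean over all arrays, was placed. KLHL24 and MXI1 were among the 3 closest named rows to each other, at 0.100. Over all tested probe sets, most of them without a name here, KLHL24 was the 9th closest to MXI1 and MXI1 the 11th closest to KLHL24. The remaining close row of HBP1 was GLUL, the glutamine synthetase, at 0.0899, and that of MXI1 was FZD1, a WNT receptor, at 0.105. BCL6 had other neighbours, namely CD55, which protects cells from complement, at 0.0906, C21H14orf132 at 0.0984 and CYP4V2, a fatty acid hydroxylase, at 0.129. All of these rows were lower with insulin, as a row must be to lie close to a member.

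**Figure D4:**
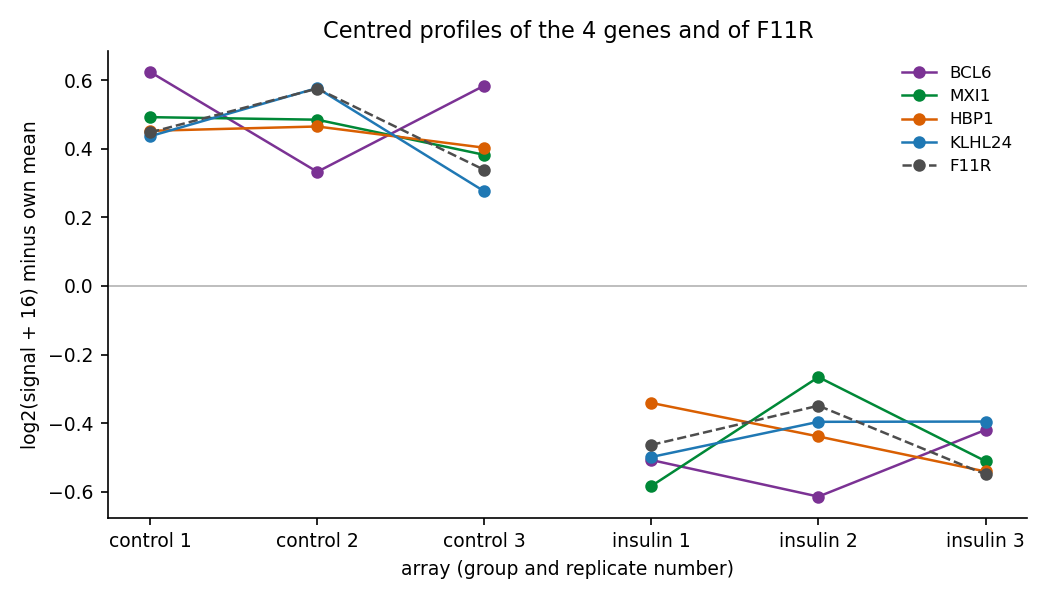
Centred log2(signal + 16) of the 4 member rows and of F11R (dashed) on control arrays 1 to 3 and insulin arrays 1 to 3, with lines joining arrays of a group only to guide the eye. BCL6 is lowest of the 4 members on control replicate 2 and KLHL24 lowest on control replicate 3.

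Other genes of the same pathways were sought by name. Of 47 genes listed as reported FOXO targets, the 4 members were the only ones with a named row, and the other 43, among them IRS2, CCNG2, TXNIP and CDKN1B, were not analysed here. Of 25 genes of insulin and PI3K signalling, from the receptor INSR to AKT and MTOR, 0 had a named row. Of 13 genes of the MYC and MAX network and 57 kelch-like genes and cullin 3 partners, MXI1 and KLHL24 were the only ones. Of 9 cell cycle genes reported as restrained by BCL6 or HBP1, such as CCND1 and CCND2, 0 had one. Names were taken only from the authors' table, so the members were not set against the rest of their pathway here.

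Of 20 genes listed as MYC targets in growth, which MXI1 opposes, 3 had a named row. All 3 come from the same table chosen on these arrays, so their direction is no independent evidence. RRM2, a subunit of ribonucleotide reductase, and CDC20, an activator of the anaphase-promoting complex, were past the limma threshold with log2 differences of 1.44 and 1.00, in a comparison in which 1.18% of tested probe sets were called higher. CDK4, the kinase that works with D-type cyclins, had signals of 1467, 1462 and 1634 on control arrays and 2299, 2332 and 2160 on insulin arrays. These groups did not overlap, as in 12.3% of the tested probe sets, in which every insulin array was above every control array. The log2 difference of CDK4 was 0.57 with an SE of 0.12. Its limma adjusted p of 0.0522 missed the threshold, and with the replicate number as a block it was 0.0382.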

How the data were processed

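Biotin-labelled RNA was measured on 6 arrays, per the labels' protocols. The authors deposited a scaled, linear intensity for every probe set on each array. The submitters' processing notes name GCOS; its settings are not stated there. The authors' deposited table of 158 rows adds a log2 ratio, the same ratio as a linear fold, a p-value and t, a score per row; which test gave them is not stated. Its 9 columns of single arrays, 3 of them with day 0 names, match no 1 sample and stayed out.

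Gene names came from that table through RefSeq (ARS-UCD2.0), used for names only, with 32 rows by symbol, 35 by gene number, 9 by synonym, 28 read from titles and 54 unnamed. The values name no genome build, so coordinates are left out, and sequences were not used here.

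Signals were analysed as log2(signal + 16), which understates changes of dim probe sets. The 112 control probe sets and the 40% of the others with the lowest mean log2 value were left out, the filter lying at a signal of 122. Groups follow the sample titles. Limma 3.58.1 (R 4.3.3; lmFit and eBayes, no block) compared insulin with control over 14410 probe sets, and was tested on simulated data. Figures used Python 3.11.15 and matplotlib 3.10.9.

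Deviations from the group means correlated at 0.56, 0.31 and 0.42 between same-numbered arrays (different numbers, -0.41 to 0.13). Each is over 0.1, so the numbers were taken to pair the arrays, as read from the data. The labels do not state it, and control 2 with insulin 3, at 0.13, also passed that mark, so the pairing is uncertain. SEs in the text are from the fit with no block. With the block they were smaller for every probe set described, at 0.106 instead of 0.131 for BCL6 and 0.103 instead of 0.167 for Bt.20431.3.S1_at. Replicates correlated at 0.953 to 0.980 and each was counted.

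Named genes were every member row, probe sets of the same Bt number, the 3 closest named rows to each member and every named row of the lists. Members and lists were chosen with earlier results of these data known. Alternatives were another pseudocount, filter, normalization, variance or statistic, the replicate block and leaving out each array. Precision is limited by the number of arrays, 3 per group.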

Additional observations from a re-analysis of the deposited data

How the results depend on the processing

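The 6 probe sets were given 60 log2 differences under 10 alternatives (pseudocount 1 or 64, quantile normalization, the replicate block, each array left out). The largest move from a reported value was 0.13, and no sign changed. The block cannot move a difference in a balanced design, and in groups of 3 that do not overlap an array left out can neither turn its sign nor move it by 1 SD, so these values say little about stability. The count over all probe sets, 326, was 916 with the replicate block, 542 with a trended robust variance, 12 with an ordinary t statistic, 2 with no filter, and 3 (without control replicate 3) to 242 (without control replicate 1) with 1 array left out. The count of member rows past the threshold, 4, was 0 with an ordinary t statistic or with limma and no filter, and 0 to 4 with 1 array left out. The block changed no member's call. Without the filter 4 of 4 also had an unadjusted p under 0.05, as with the ordinary t statistic, but the authors' selection on this contrast fixed that. With no filter both the adjustment and the SE changed (for BCL6 from 0.131 to 0.146), and their parts were not separated; the cause of the other changes was not tested. With 3 arrays per group, the calls rest on a spread pooled over probe sets.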
